A study of Rattus norvegicus with 15 samples.

Results

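The genes described here are 10 genes known for their expression in fat cells: Adipoq, Lep and Cfd, which encode secreted proteins; Plin1, Plin4 and Cidec, which encode proteins of the lipid droplet; Fabp4 and Lpl, which encode a fatty acid carrier and a lipase; and Pparg and Cebpa, which encode transcription factors of fat cell formation. They were picked by gene symbol from the deposited expression table, where each symbol had 1 entry, so they are 10 of 22468 genes. All 10 passed the filter on low counts, with 17657 genes tested in all.

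Fat cells of the bone marrow arise from the same stromal precursors as osteoblasts, the cells that make bone, and marrow fat is known to increase after the loss of ovarian hormones. Pparg and Cebpa together drive the precursor towards the fat cell and switch on the other genes. The mature cell takes up fatty acids that Lpl releases from circulating triglyceride, carries them with Fabp4, stores them in droplets coated by perilipins and enlarged by Cidec, and secretes adiponectin (Adipoq), leptin (Lep) and adipsin (Cfd). Several of these genes are not restricted to fat cells: Fabp4 is also expressed by endothelium and macrophages, Lpl by muscle and macrophages, Plin4 by skeletal muscle and Cebpa by granulocyte precursors.

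The samples are bone of female Sprague-Dawley rats, measured as bulk tissue by sequencing of polyadenylated RNA, with 5 groups of 3 libraries. The SYT, YJT and YJZYT rats were ovariectomized and are otherwise known here only by these labels; the study is about Zhuanggu Zhitong Capsule, and it is unstated in the labels which of these groups were given it. Model rats were ovariectomized and carry the condition osteoporosis, and Blank rats had no treatment. A sham operation, the age of the rats and the number of animals behind a library are not given in the labels, so p-values measure the spread between libraries, which may be technical. Ovariectomy is therefore shared by 12 libraries and not recorded for the 3 Blank libraries.

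Libraries held 64472700 to 74255667 counts. The tissue label was checked against 7 osteoblast markers, all detected in every library, whose summed level was 2580 CPM (counts scaled to library size) in YJT3 and 3300 in YJZYT3 and 11700 to 83300 in the other libraries. YJT3 and YJZYT3 therefore stood apart in bone cell RNA, and values without them are given for some genes beside the contrasts that hold them. In bulk tissue, fewer fat cells and less of a transcript per fat cell cannot be told apart.

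Levels are given as FPKM, fragments scaled to transcript length and sequencing depth, a unit that allows genes to be compared. Fabp4 and Cfd were the most abundant of the 10, ranking 1 or 2 in every library, with medians of 119 and 73.9 FPKM over the 15 libraries. Lpl and Cebpa ranked 3 or 4 in every library, at medians of 21.7 and 20.6 FPKM. Adipoq had a median of 6.72 FPKM, Pparg 2.69, Plin1 1.83, Cidec 1.32, Plin4 0.992 and Lep 0.0684. Among the 10, the fat cell markers Adipoq, Plin1, Cidec and Lep thus had lower medians than Fabp4, Cfd, Lpl and Cebpa.

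**Figure D1:**
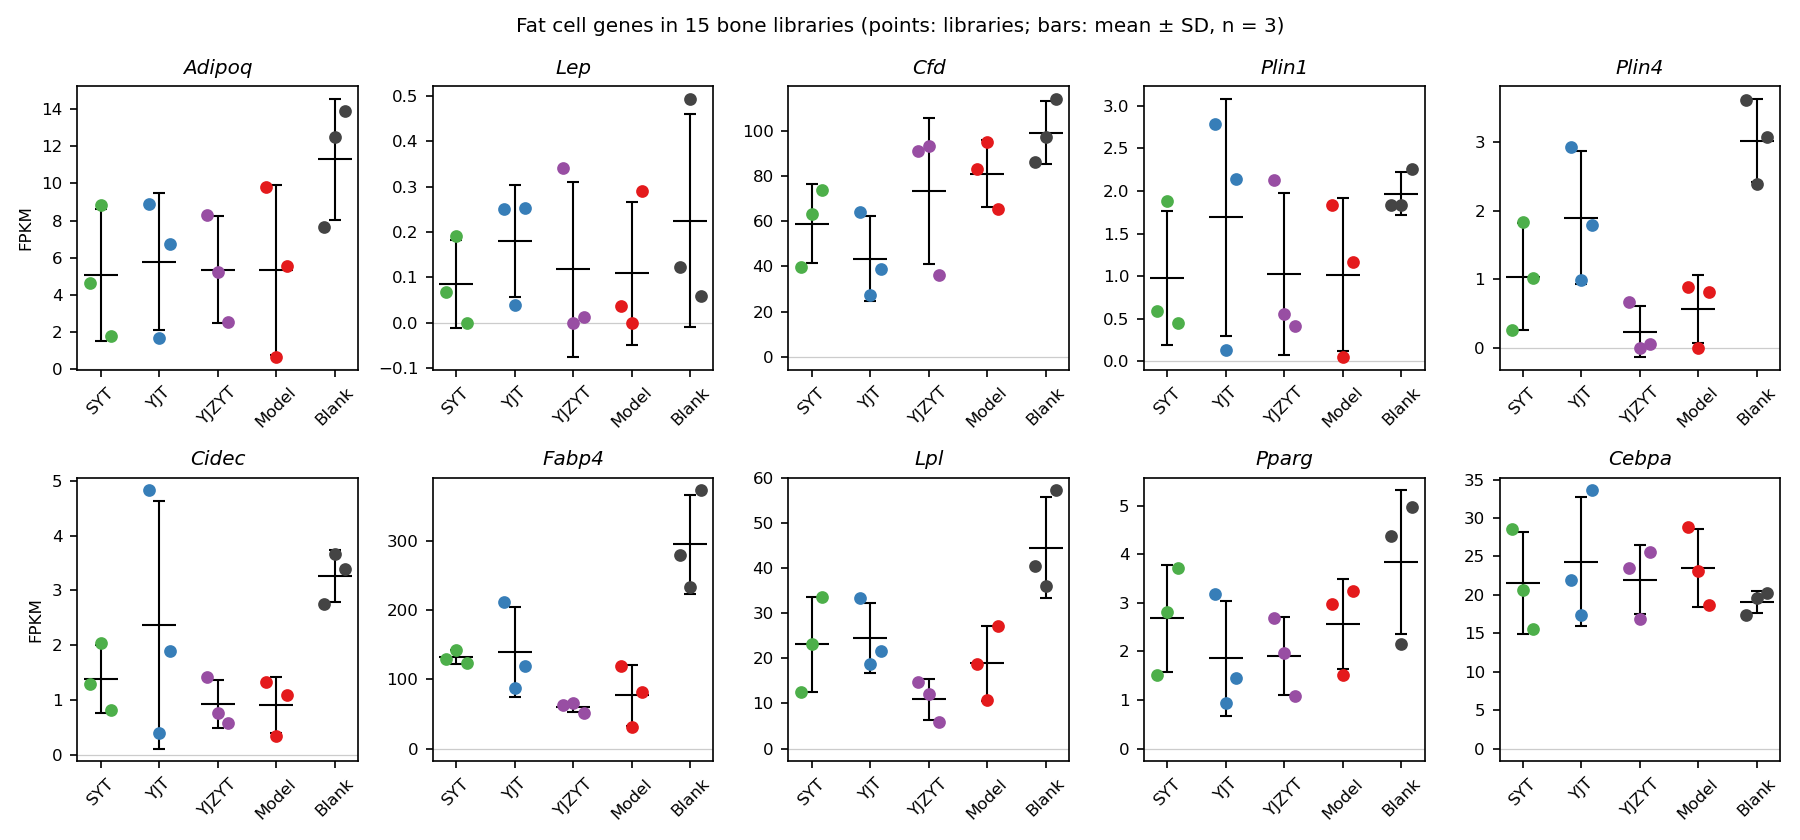
FPKM of each of the 10 genes (vertical axes, FPKM, each starting near 0 with its own scale) in SYT, YJT, YJZYT, Model and Blank libraries; points are libraries and bars the mean ± SD of 3. All 12 ovariectomized libraries lie below the 3 Blank libraries for Fabp4 and Lpl, and Model2 is the lowest library, or tied for it at 0, for 6 genes.

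Among the secreted proteins, Adipoq was at 4.63, 8.85 and 1.79 FPKM in SYT1, SYT2 and SYT3, 8.91, 1.70 and 6.72 in YJT1, YJT2 and YJT3, 8.30, 5.23 and 2.53 in YJZYT1, YJZYT2 and YJZYT3, 9.83, 0.656 and 5.56 in Model1, Model2 and Model3, and 7.67, 12.5 and 13.9 in Blank1, Blank2 and Blank3. The groups overlapped: the means of the 4 ovariectomized groups were 5.09 to 5.78 FPKM, against 11.3 ± 3.25 in Blank (SD, n = 3), and libraries of 1 group differed by more than 3-fold in each ovariectomized group. Adiponectin is a hormone that raises insulin sensitivity and is made by marrow fat as well as by other depots.

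Cfd encodes adipsin, a protease of the complement system. It was at 39.9, 63.1 and 73.9 FPKM in SYT, 64, 27.6 and 39.0 in YJT, 91.0, 93.2 and 36.1 in YJZYT, 83.0, 94.8 and 65.3 in Model, and 86.3, 97.1 and 114 in Blank. All SYT and all YJT libraries lay below all Blank libraries in FPKM (in CPM the YJT libraries did), while every pair of neighbouring groups in the order of means overlapped. In CPM, 5.49% of genes had all SYT libraries below Blank and 7.73% all YJT libraries. Lep, which encodes the satiety hormone leptin, had 18, 49 and 0 counts in SYT, 66, 11 and 67 in YJT, 86, 0 and 4 in YJZYT, 10, 0 and 75 in Model, and 32, 129 and 16 in Blank. A count of 0 allows up to 0.0438 CPM in Model2, 0.0419 in SYT3 and 0.0404 in YJZYT2, at 3 counts of the total and for counting error only, and no order of the groups can be read from Lep.

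Of the droplet genes, Cidec, which encodes a protein that joins small droplets into large ones, was at 1.29, 2.04 and 0.814 FPKM in SYT, 4.83, 0.393 and 1.89 in YJT, 1.42, 0.764 and 0.581 in YJZYT, 1.32, 0.336 and 1.08 in Model, and 2.75, 3.67 and 3.39 in Blank. YJT1 was the highest library of all and the only 1 of 12 ovariectomized libraries at or above the lowest Blank value. Plin4, a perilipin of small droplets, was at 0.265, 1.83 and 1.02 FPKM in SYT, 2.92, 0.992 and 1.79 in YJT, 0.669, 0 and 0.0541 in YJZYT, 0.887, 0 and 0.822 in Model, and 3.61, 2.39 and 3.07 in Blank. Here too YJT1 was the only ovariectomized library that reached the Blank range, and 2 libraries, Model2 and YJZYT2, held no count. Plin1, the perilipin that guards the large droplet of the mature fat cell, was at 0.596, 1.88 and 0.451 FPKM in SYT, 2.79, 0.131 and 2.14 in YJT, 2.13, 0.561 and 0.415 in YJZYT, 1.83, 0.0526 and 1.17 in Model, and 1.83, 1.83 and 2.26 in Blank. The Blank libraries were close to each other and each of the other groups spread widely around or below them, with YJT1 53.1-fold above Model2.

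Fabp4 (chr2:93792601-93797305, plus strand) and Lpl (chr16:22537056-22561496, minus strand; both positions are those of the deposited table, with no build named) are the genes of fatty acid handling. Fabp4 was at 129, 143 and 123 FPKM in SYT, 212, 87.3 and 119 in YJT, 62.3, 66.3 and 51.5 in YJZYT, 119, 31.1 and 81.2 in Model, and 279, 233 and 373 in Blank. The highest ovariectomized library, YJT1 at 212 FPKM, lay below the lowest Blank library, Blank2 at 233. Lpl was at 12.5, 23.2 and 33.6 FPKM in SYT, 33.4, 18.8 and 21.7 in YJT, 14.7, 12.1 and 5.86 in YJZYT, 18.7, 10.7 and 27.3 in Model, and 40.5, 36.0 and 57.3 in Blank. Again no ovariectomized library reached the lowest Blank library, Blank2 at 36.0, the nearest being SYT3 at 33.6.

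Fabp4 and Lpl were the 2 genes of the 10 for which all 12 ovariectomized libraries lay below all 3 Blank libraries in CPM, a pattern held by 0.748% of the genes tested. No member lay above Blank in all 12, a pattern of 0.753% of genes. For Fabp4 the group means ran from Blank through YJT, SYT and Model to YJZYT, and of these neighbours the libraries of YJT and Blank, and of Model and SYT, did not overlap. For Lpl the order was the same and only the YJT and Blank neighbours did not overlap. In CPM, all YJT libraries lay below all Blank libraries for 7.73% of genes, and all SYT libraries above all Model libraries for 3.24%.

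Of the regulators, Pparg, the nuclear receptor that is required to form fat cells, was at 1.52, 2.81 and 3.72 FPKM in SYT, 3.19, 0.943 and 1.46 in YJT, 2.69, 1.96 and 1.08 in YJZYT, 2.97, 1.51 and 3.24 in Model, and 4.39, 2.16 and 4.97 in Blank, with every pair of neighbouring groups overlapping. Cebpa was at 28.6, 20.6 and 15.5 FPKM in SYT, 21.9, 17.4 and 33.6 in YJT, 23.5, 16.9 and 25.6 in YJZYT, 28.8, 23.1 and 18.7 in Model, and 17.4, 19.6 and 20.2 in Blank. It was the only member whose mean was lowest in Blank, at 19.1 ± 1.46 FPKM (SD, n = 3), and its libraries spanned 2.17-fold in all.

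Differences between groups were tested with edgeR's quasi-likelihood test on the counts, with Benjamini-Hochberg adjustment over all 17657 genes. Model against Blank asks what ovariectomy, as the Model group represents it, went with. None of the 10 genes passed an adjusted p of 0.05, where 0.0227% of all genes did. The nearest was Fabp4, at a log2 fold change of -1.95 (SE 0.39) and edgeR adjusted p = 0.198, followed by Lpl at -1.24 (SE 0.39, edgeR adjusted p = 0.391) and Cidec at -1.86 (SE 0.70, edgeR adjusted p = 0.479). These 3 lay below an unadjusted p of 0.05, and 4.23% of all genes did so in the same direction; DESeq2 called Fabp4 alone of the 10. Plin4 had -2.42 (SE 1.43), Adipoq -1.12 (SE 0.80), Lep -1.11 (SE 1.75), Plin1 -0.98 (SE 1.04), Pparg -0.57 (SE 0.47), Cfd -0.28 (SE 0.34) and Cebpa 0.30 (SE 0.28). Single libraries moved some of these values: Adipoq was at -0.60 and Plin1 at -0.42 without Model2, and at -1.95 and -1.76 without Model1, while Lep was at 0.25 without Blank2 and -3.57 without Model3. Of the 10, 9 had a fold change below 0, against 48.3% of all genes, and their median was -1.11, against 0.02 over all genes. The libraries of Fabp4, Plin4, Cidec and Lpl did not overlap, all lower in Model, which 7.99% of genes showed.

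YJZYT against Blank gave the only call among the 10 genes in the 10 pairwise contrasts. Fabp4 fell to 60.0 ± 7.64 FPKM in YJZYT, against 295 ± 71.7 in Blank (SD, n = 3 each), a log2 fold change of -2.15 (SE 0.39) with edgeR adjusted p = 0.0417. It was 1 of 63 genes that fell, 0.357% of those tested. The fold change lay between -2.25 and -1.98 whichever library was left out, but the call did not survive every omission. Adjusted p was 0.0746 to 0.158 without Blank1, Blank2 or Blank3, 0.0556 to 0.216 without YJZYT1, YJZYT2 or YJZYT3, and 0.0528 to 0.0655 without SYT2, SYT3, YJT2 or YJT3; it was 0.259 without YJT3 and YJZYT3 together. It stayed called without Model1, Model2, Model3, SYT1 or YJT1. Lpl, at 10.9 ± 4.53 FPKM in YJZYT and 44.6 ± 11.2 in Blank, had -1.90 (SE 0.40) and edgeR adjusted p = 0.0629, and it was called without Model2 (0.0396) or without SYT1 (0.0431). Lpl was also called by DESeq2 (adjusted p = 0.000355) and by limma with a pseudocount of 1 (0.0219) or 0.1 (0.029) on FPKM; without YJT3 and YJZYT3 it was at -1.62 with edgeR adjusted p = 0.305. Plin4 had -3.53 (SE 1.5, edgeR adjusted p = 0.373), Cidec -1.70 (SE 0.70, edgeR adjusted p = 0.347), Adipoq -0.96 (SE 0.80) and Pparg -0.86 (SE 0.47). Limma with a pseudocount of 1 called Plin4, at -1.73 (limma adjusted p = 0.0196), and with a pseudocount of 0.1 did not. Plin1, Lep, Cfd and Cebpa had -0.82, -0.89, -0.31 and 0.35. Without YJZYT1 the values of Plin4, Plin1, Lep and Adipoq were -6.61, -1.85, -4.64 and -1.40. Without YJZYT3 they were -3.08, -0.46, -0.39 and -0.65, and that of Cfd was 0.0. These values were the same without YJT3 and YJZYT3 together, where Cidec was at -1.49. Without Blank2 the value of Lep was 0.47. Of the 10, 9 were below 0, as were 50.5% of all genes. At an unadjusted p of 0.05, 4 members were lower, where 7.56% of all genes were, and the same number did not overlap, where 12.7% of genes did not.

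SYT and YJT were also set against Blank, and no gene of the table passed in either, a share of 0.0%. Fabp4 had log2 fold changes of -0.90 (SE 0.38, edgeR adjusted p = 0.955) in SYT and -0.93 (SE 0.38, edgeR adjusted p = 0.547) in YJT. At an unadjusted p of 0.05 Fabp4 was the only member lower in SYT, where 2.54% of genes were, and Fabp4 and Cfd were lower in YJT, where 2.78% were. Cfd had -1.04 (SE 0.34, edgeR adjusted p = 0.477) in YJT. Cidec and Plin4 had -0.35 (SE 0.68) and -0.53 (SE 1.35) in YJT, with YJT1 as the library at or above Blank. Without YJT3 and YJZYT3, Fabp4, Cfd and Lpl were at -0.77, -0.91 and -0.56 in YJT. Fabp4, Plin4, Cidec and Lpl did not overlap in SYT against Blank, lower in SYT as were 5.49% of genes, and Fabp4, Cfd and Lpl in YJT, as were 7.73%. DESeq2 and limma on log2 FPKM called no member in either contrast. The 4 contrasts with Blank share the same 3 Blank libraries.

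**Figure D2:**
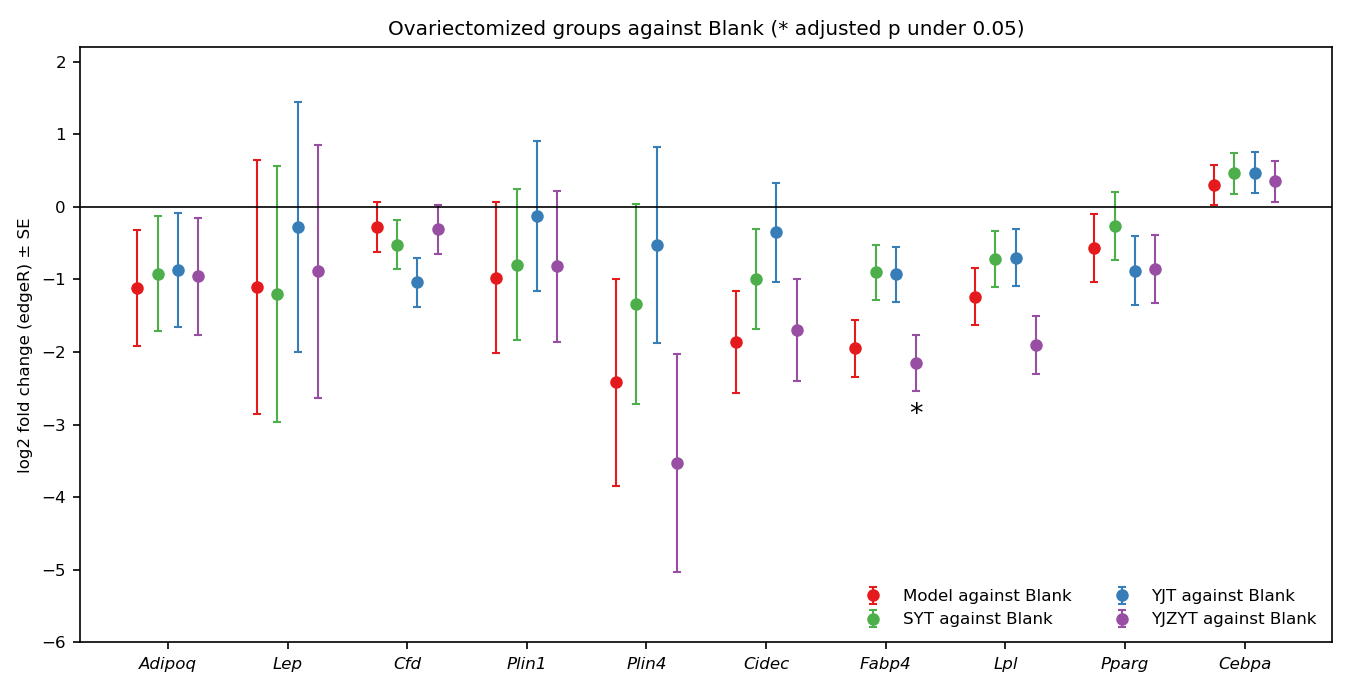
Log2 fold change from edgeR (vertical axis, bars are the SE) of each of the 10 genes (horizontal axis) in SYT, YJT, YJZYT and Model against Blank. Only Fabp4 in YJZYT passed an adjusted p of 0.05, at -2.15, and Cebpa is the only gene above 0 in all 4 contrasts.

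Against Model, the contrasts ask what differed in ovariectomized rats between the labelled conditions and the Model group. No gene of the table passed in any of the 3, a share of 0.0%, and no member passed with DESeq2 or limma either. SYT had Fabp4 at 132 ± 10.5 FPKM, against 76.9 ± 43.9 in Model (SD, n = 3 each), a log2 fold change of 1.05 (SE 0.38, edgeR adjusted p = 1). It was the only member at an unadjusted p of 0.05 in that contrast, where 1.98% of genes were higher, and the only member whose libraries did not overlap, where 3.24% of genes did so. YJT had Fabp4 at 1.02 (SE 0.38, edgeR adjusted p = 0.746), Cidec at 1.51 (SE 0.70, edgeR adjusted p = 0.757) and Cfd at -0.76 (SE 0.34, edgeR adjusted p = 0.757). These 3 had an unadjusted p under 0.05, where 6.58% of genes did, and Cidec was at 0.40 without YJT1 and 1.13 without Model2. Without YJT3 and YJZYT3, Fabp4, Cidec and Cfd were at 1.17, 1.69 and -0.63 in YJT, and Fabp4 and Lpl at -0.13 and -0.39 in YJZYT, none of them called. Plin4 was the only member with all YJT libraries above all Model libraries, as 6.83% of genes were. YJZYT had no member at an unadjusted p of 0.05, where 7.29% of genes were, with Fabp4 at -0.20 (SE 0.38) and Lpl at -0.66 (SE 0.39). The interval of 2 SE around the Fabp4 value ran from -0.96 to 0.55, so a moderate difference in either direction could not be told from none. The 3 contrasts share the 3 Model libraries, in which Fabp4 was at 119, 31.1 and 81.2 FPKM. Without Model2, the lowest of these, Fabp4 had a log2 fold change of 0.68 in SYT and 0.65 in YJT.

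Between the 3 labelled conditions no gene passed either, a share of 0.0% in each contrast. YJZYT against SYT had Fabp4 and Lpl at log2 fold changes of -1.25 (SE 0.38, edgeR adjusted p = 0.402) and -1.18 (SE 0.39, edgeR adjusted p = 0.424), and neither passed. Against YJT the values were -1.22 (SE 0.38, edgeR adjusted p = 0.34) and -1.20 (SE 0.39, edgeR adjusted p = 0.384). Without YJT3 and YJZYT3, Fabp4 and Lpl were at -1.18 and -0.90 against SYT and at -1.31 and -1.07 against YJT. At an unadjusted p of 0.05, Fabp4 and Lpl were counted against SYT, where 9.1% of genes were, and Fabp4, Lpl and Cfd (0.74, SE 0.34) against YJT, where 6.39% were. The YJZYT libraries of Fabp4 and of Plin4 lay below all YJT libraries, as did those of Lpl, which 7.59% of genes showed. YJT against SYT had no member at an unadjusted p of 0.05, where 3.05% of genes were, with Fabp4 at -0.03 (SE 0.38, 2 SE interval from -0.78 to 0.72). Without YJT3 and YJZYT3, Fabp4 was at 0.13 in that contrast.

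The 10 genes did not vary together as 1 block. Pearson's r of log2 CPM over the 15 libraries ran from -0.54 to 0.94 over the 45 pairs, with a median of 0.50; these are descriptions, and the libraries share depth and tissue composition. Adipoq was closest to Plin1 (r = 0.94) and Cidec (r = 0.86), and these values were 0.90 and 0.85 without SYT3 and Model2, the libraries farthest from the median Adipoq level, and 0.93 and 0.87 within groups. Fabp4 was closest to Lpl and Cidec, both at r = 0.84. Adipoq had r = 0.69 with Fabp4, 0.48 with Lpl, 0.49 with Pparg, 0.23 with Cfd and 0.01 with Cebpa. Without SYT3 and Model2 the values were 0.60 with Fabp4, 0.59 with Lpl, 0.76 with Pparg and -0.13 with Cebpa. Lep had r = 0.70 with Adipoq, and 0.45 without SYT3 and Model2, both at 0 counts of Lep. The value for Cfd became 0.78 without SYT3 and Model2, so both values rested on those libraries. The median r of Adipoq with the 17656 other genes tested was 0.04.

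**Figure D3:**
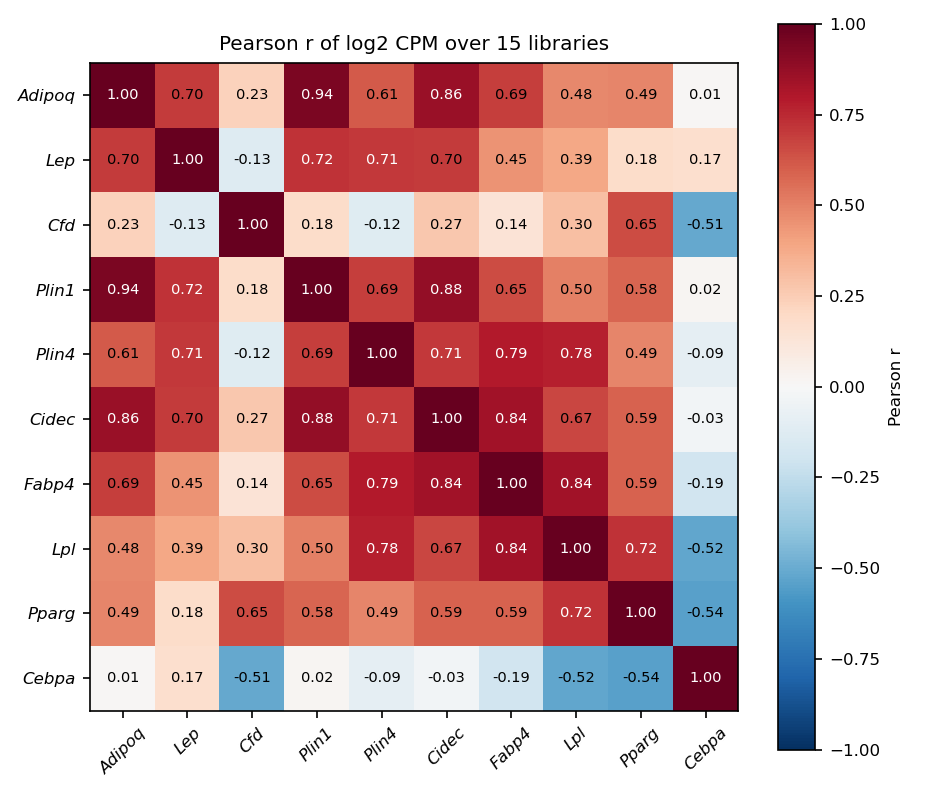
Pearson r of log2 CPM over 15 libraries for each pair of the 10 genes (both axes list the genes, colour is r). Adipoq, Plin1 and Cidec have the highest values, up to 0.94, and Cebpa has values near or below 0 with Pparg (-0.54) and Fabp4 (-0.19).

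The share of the variance of log2 CPM that lay between groups also differed from gene to gene. It was 78.2% for Fabp4, 69.3% for Lpl, 52.0% for Plin4, 48.3% for Cfd, 44.4% for Cidec and 33.8% for Pparg. It was 23.7% for Adipoq, 21.3% for Cebpa, 18.6% for Lep and 16.7% for Plin1, against a median of 31.4% over all genes. Adipoq and Plin1 varied mainly between libraries of 1 group: the lowest Adipoq levels, 0.656 FPKM in Model2, 1.70 in YJT2 and 1.79 in SYT3, came from groups whose highest libraries had 9.83, 8.91 and 8.85. Over the 10 genes the mean rank of a library (1 is lowest of 15) was 3.45 in Model2, 3.80 in YJZYT3, 4.50 in YJT2 and 4.75 in YJZYT2, against 10.5 to 12.5 in Blank; YJT1 reached 12.

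Promoter sequences are shown for 4 genes chosen for their r with Adipoq of 0.70 or more over the 15 libraries (Plin1, Cidec and, resting on SYT3 and Model2, Lep, beside Adipoq itself): 300 bases each, 250 before to 50 after the start site, from RefSeq on build GRCr8, read 5′ to 3′ on the gene's strand. Capitals mark the letters TTGCNNAA, a pattern of the kind that C/EBP factors such as Cebpa bind. Adipoq lies at chr11:91240120-91240419 on the minus strand, Plin1 at chr1:143086099-143086398 on the minus strand, Cidec at chr4:148137066-148137365 on the minus strand and Lep at chr4:58626288-58626587 on the plus strand.
Adipoq: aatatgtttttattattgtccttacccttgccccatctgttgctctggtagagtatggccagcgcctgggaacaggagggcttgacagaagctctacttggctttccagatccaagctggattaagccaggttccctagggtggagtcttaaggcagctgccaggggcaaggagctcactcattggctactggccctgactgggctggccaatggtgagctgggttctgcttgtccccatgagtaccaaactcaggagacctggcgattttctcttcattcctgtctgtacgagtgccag
Plin1: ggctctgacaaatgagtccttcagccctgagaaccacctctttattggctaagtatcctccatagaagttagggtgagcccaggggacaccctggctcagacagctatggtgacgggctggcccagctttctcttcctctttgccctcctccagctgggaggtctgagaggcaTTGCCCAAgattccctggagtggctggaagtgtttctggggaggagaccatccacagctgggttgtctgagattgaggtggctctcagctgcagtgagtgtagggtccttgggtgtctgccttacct
Cidec: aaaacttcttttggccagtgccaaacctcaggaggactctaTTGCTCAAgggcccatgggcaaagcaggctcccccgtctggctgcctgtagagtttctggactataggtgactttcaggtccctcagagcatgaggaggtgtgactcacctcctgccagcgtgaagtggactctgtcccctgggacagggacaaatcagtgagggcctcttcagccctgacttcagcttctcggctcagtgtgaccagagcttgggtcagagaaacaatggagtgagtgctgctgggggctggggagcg
Lep: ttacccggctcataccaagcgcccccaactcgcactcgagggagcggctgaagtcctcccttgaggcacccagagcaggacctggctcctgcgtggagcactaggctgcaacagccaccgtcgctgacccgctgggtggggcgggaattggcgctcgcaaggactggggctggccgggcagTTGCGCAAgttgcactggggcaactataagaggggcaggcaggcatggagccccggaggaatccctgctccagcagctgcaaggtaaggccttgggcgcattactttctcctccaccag
The motif began 77 bases before the start in Plin1, 209 in Cidec and 69 in Lep, and was absent from the Adipoq window. TTGCNNAA was found, on both strands, in 10.6% of 33469 rat promoters and in 4 of the 13 windows of the members, Pparg included. The windows cover 8 of the 10 genes, without Fabp4 and Lpl. They are not independent, since Plin4 and Pparg have more than 1 window each and several Plin4 windows overlap. The PPAR-RXR direct repeat, AGGNCA and again AGGNCA with 1 base between, was in 0.415% of all promoters and in no member window, and AGGTCA alone in 16.2% and in no member window. These are matches of letters and do not show binding.

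By the same measure, the genes most like Adipoq among all those tested with a mean of 1 FPKM, members aside, were C4b (r = 0.89 over 15 libraries), Thrsp (0.87), Pck1 (0.85), Nnat (0.84), Spred2 (0.83), Klf13, Calml3, Clock, Ak4 and Cds2 (0.80 each). Thrsp and Pck1 are themselves known in fat cells, Pck1 for glycerol synthesis. Without SYT3 and Model2 the value was 0.79 for C4b, 0.69 for Thrsp, 0.64 for Pck1 and 0.45 for Klf13.

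Other genes of fat and of lipid handling were set beside the members, from lists of genes chosen with earlier results in view. Of 21 other fat cell genes, 0 passed in either direction in Model or YJZYT against Blank; 17 of them were below 0 in Model (median -0.39), where 48.3% of all genes were, and 15 in YJZYT (median -0.56), where 50.5% were. Slc2a4, the insulin-responsive glucose transporter, was at 4.27 ± 2.26 FPKM in Model and 20.6 ± 3.25 in Blank, log2 fold change -2.27 (SE 0.43, edgeR adjusted p = 0.196). Gpd1, which makes glycerol phosphate, had -2.07 (SE 0.46, edgeR adjusted p = 0.273) in Model and -2.05 (SE 0.46, edgeR adjusted p = 0.0726) in YJZYT. Both genes are also expressed in muscle. The 11 genes of triglyceride synthesis and lipolysis and the 6 relatives of the perilipins and CIDE proteins gave 0 calls in both contrasts. Acsl1, Gpam and Mgll, which activate fatty acids, build glycerides and release glycerol, had log2 fold changes of -0.70, -0.57 and -0.93 in Model. Abhd5 had 0.46, and the list's median was -0.37, with 9 genes below 0 and 2 above. The perilipin gene Plin5 had -2.65 (SE 1.06), at 0.133 FPKM in Model and 0.82 in Blank, and Cidea had -1.2. Plin2 and Bscl2 had 0.21 and 0.17, and the relatives' median was -0.4, with 4 below 0 and 2 above. The relatives summed to 82.9 to 101 CPM in Model and 81.2 to 87.8 in Blank. Of 7 tested genes that handle Lpl, Gpihbp1, which carries Lpl across the capillary wall, had -1.51 (SE 0.37, edgeR adjusted p = 0.306) in Model and -1.18 (SE 0.37, edgeR adjusted p = 0.201) in YJZYT, and none passed. None of 4 adipokine receptor genes passed, with Cdh13 at -1.07 in Model and -1.73 in YJZYT.

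Of 15 regulators of fat cell formation, 2 fell in YJZYT against Blank, where 0.357% of all genes fell, and none was called in Model, where 0.0227% were. Cebpb, an early factor of the programme, fell to 10.4 ± 1.87 FPKM in YJZYT, against 30.8 ± 4.95 in Blank, with a log2 fold change of -1.43 (SE 0.27, edgeR adjusted p = 0.0465). Ebf2, a factor of precursors, fell to 0.0491 ± 0.0227 FPKM in YJZYT, against 0.466 ± 0.205 in Blank, -3.06 (SE 0.49, edgeR adjusted p = 0.0324). The Cebpb call held without Model2, SYT1, SYT2 or YJT1, 4 of the 15 libraries left out in turn, and was lost without any of the other 11 (adjusted p up to 0.213). The Ebf2 call was lost without Blank1, Blank2, Blank3, YJT2, YJZYT2 or YJZYT3 (up to 0.184), and neither held without YJT3 and YJZYT3 together or in a fit of only the 6 libraries compared. Klf15 had -1.41 in Model and -2.19 in YJZYT, neither passing. Of 7 brown fat genes, 5 were tested and none passed. Ucp1 and Elovl3 were left out by the filter on low counts, and Cox8b and Dio2 had -2.76 and -1.65 in Model; Cox8b is also a muscle gene. The stromal cell markers had a median of -0.35 in Model and -0.55 in YJZYT with 0 of 10 called. In Model 7 of them were below 0 and 3 above, with Vcam1 at -1.09.

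Markers of other cell types were set beside the members as well. Only 1 of them, Mylpf in YJZYT against Blank, passed the test, where 0.357% of all genes fell. The 9 skeletal muscle markers in the table were all lower, at an unadjusted p under 0.05, in Model and in YJZYT against Blank. Of all genes, 4.23% were so in Model and 7.56% in YJZYT. The median log2 fold changes of the 9 were -3.05 and -3.79. In YJZYT Mylpf fell to 48.4 ± 39.2 FPKM, against 723 ± 140 in Blank (log2 fold change -3.77, edgeR adjusted p = 0.0463). The Mylpf call held only without Model2, SYT1 or YJZYT1 among the 15 omissions (adjusted p up to 0.231), and it was lost without YJT3 and YJZYT3 together and with only the 6 libraries compared. The list's summed level was 648 to 4040 CPM in SYT, 3130 to 3480 in YJT, 33.9 to 893 in YJZYT, 244 to 813 in Model and 4390 to 6550 in Blank. The 6 endothelial markers in the table had medians of -0.54 in Model and -0.86 in YJZYT with 0 called, and summed to 142 to 342 CPM in SYT, 190 to 263 in YJT, 165 to 194 in YJZYT, 168 to 304 in Model and 306 to 375 in Blank. The 7 tendon and fibroblast markers had medians of -0.28 in Model and -1.45 in YJZYT with 0 called, and summed to 109 to 529 CPM in SYT, 145 to 583 in YJT, 44.8 to 187 in YJZYT, 115 to 348 in Model and 303 to 382 in Blank, with Tnmd at 0 in some libraries. None of the other markers was at 0 in any library of these lists. The 10 members together summed to 380 to 414 CPM in SYT, 282 to 526 in YJT, 212 to 326 in YJZYT, 249 to 361 in Model and 541 to 712 in Blank. In Blank the largest parts of this sum were Fabp4 and Lpl, at means of 209 and 174 CPM. Sums of the 21 other fat cell genes overlapped more. They were 386 to 465 CPM in SYT, 405 to 520 in YJT, 339 to 412 in YJZYT, 296 to 457 in Model and 455 to 509 in Blank. The part of muscle, vessel or tendon in the levels of Fabp4, Lpl and Plin4 was not tested. In SYT1 the muscle markers were at 648 CPM, within the Model range, and Fabp4 was at 122 CPM, above all Model libraries, of which the highest had 82.3. In the same library Lpl, at 64.9 CPM, and Plin4, at 1.58 CPM, lay within the Model ranges of 43.9 to 106 and 0 to 3.88 CPM. SYT1 is 1 library, and what its levels rest on was not tested.

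**Figure D4:**
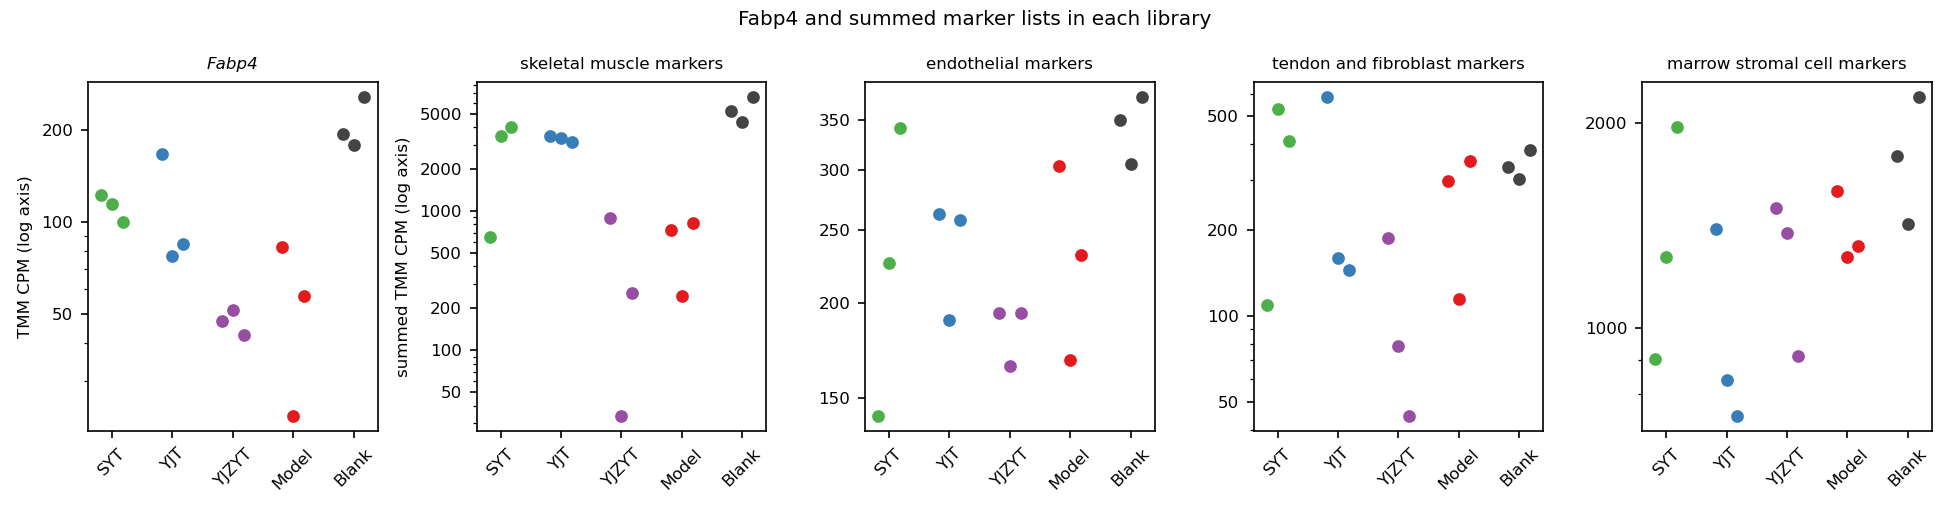
Fabp4 and the summed skeletal muscle, endothelial, tendon and fibroblast, and marrow stromal cell markers in TMM-scaled CPM (vertical axes, log scale) in SYT, YJT, YJZYT, Model and Blank libraries; points are libraries. Blank libraries are highest for Fabp4 and muscle markers.

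Other marker lists ran as follows. The osteoblast list had 0 of 7 genes called in Model and in YJZYT (medians 0.24 and -0.44). The macrophage list had 0 of 6 called (medians -0.09 and -0.68). In Model 4 of its genes were below 0 and 2 above, with Cd163 at -1.32 and Csf1r at 0.21. The list summed to 438 to 548 CPM in Model and 431 to 552 in Blank. The granulocyte precursor list had 0 of 6 called (medians -0.28 and 0.13), and the erythroid list 0 of 5 (medians -0.70 and 0.54). No gene of any list passed in the other 8 contrasts.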

How the data were processed

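Per the labels' protocols, bone RNA was extracted with Trizol, selected on oligo(dT) beads, marked with dUTP, ligated to adapters with molecular identifiers and sequenced as paired ends. Per the submitters' processing notes, edgeR, DESeq2, StringTie 1.3.4d, UMI-tools, HISAT2 2.0.4 and cutadapt 1.9 were used, with no roles named; no source used here states the build, annotation, counting step or strand setting. For every gene and library the authors deposited a count, used as it stands, and an FPKM value. Genes that overlap others may share reads.

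Counts were filtered with filterByExpr (17657 genes tested, 4811 left out), scaled with TMM and tested with edgeR 4.0.16 (R 4.3.3) in a robust quasi-likelihood fit over the 15 libraries, two-sided, for all 10 pairs of groups, with 10 residual degrees of freedom and a biological coefficient of variation of 42.7%. The SE is the log2 fold change's size divided by the root of F. Log2 CPM used a prior count of 2. Alternatives used DESeq2 1.42.0 and limma 3.58.1. The edgeR script was tested on simulated data.

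The 10 genes and 15 lists (138 of 145 genes matched by symbol) were chosen with earlier results of these data known. Named were all 10 members, list genes past an adjusted p of 0.05, up to 4 per list with the smallest p in Model against Blank, and the 10 genes most correlated with Adipoq.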

Additional observations from a re-analysis of the deposited data

How the results depend on the processing

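Of 2470 alternative values for the 100 log2 fold changes of the 10 genes, 2451 kept their side of the threshold, 12 lost a call, 7 gained one and 0 reversed a call; 33 fold changes turned sign under some setting, none of them called and none larger than 1.2 in size. In YJZYT against Blank, the count of members called, 1 as reported, was 2 with DESeq2, 3 with limma on log2(FPKM + 1), 2 with limma on log2(FPKM + 0.1), 0 without YJT3 and YJZYT3 together, 4 at an unadjusted p under 0.05, and 0 to 2 when a library was left out. With the replicate number as a block, the count was 0 and Fabp4 had a log2 fold change of -2.13 with edgeR adjusted p = 0.0638; Cebpb, Ebf2 and Mylpf also lost their calls (0.0678, 0.0638 and 0.0936). Same-numbered libraries of different groups correlated at a median of -0.018 over 30 pairs, 9 of them over 0.1. Libraries of different numbers had a median of 0.012 over 60 pairs, 18 of them over 0.1. Single same-numbered pairs ran from -0.418 to 0.40, with YJT1 and YJZYT1 at 0.40 and YJT3 and YJZYT3 at 0.40. A median over all pairs cannot show whether some groups share a batch. That was not tested, nor was the reason why calls were lost under the block. In Model against Blank, 0 members as reported became 1 with DESeq2 and 3 at an unadjusted p under 0.05. That threshold also gave 1 in SYT against Model, 3 in YJT against Model, 1 in SYT against Blank, 2 in YJT against Blank, 2 in YJZYT against SYT and 3 in YJZYT against YJT, each 0 as reported. Over all genes, Model against Blank gave 4 calls as reported, 300 with DESeq2, 40 and 2 with limma, 8 with only the 6 libraries, 0 without scaling, with the block or without YJT3 and YJZYT3 together, and 0 to 7 when a library was left out. YJZYT against Blank gave 66, with DESeq2 733, with limma 313 and 279, with the block 6, without YJT3 and YJZYT3 together 1, and 0 to 168 when a library was left out. The other contrasts gave 0, against 8 to 398 with DESeq2, 87 and 3 with limma in YJZYT against YJT, and up to 74 there when a library was left out. The Fabp4 level in SYT relative to the mean of the 5 groups was 0.939 in FPKM and 1.05 in CPM. Without scaling factors the median over all genes moved by -0.24 in SYT, -0.14 in YJT, and -0.15 and -0.14 in YJZYT against Model and Blank; Fabp4 in YJZYT against Blank stayed called at -2.30. Causes of these changes were not tested. With 3 libraries a group, a p that misses the threshold does not show that levels were alike, and Lep and Plin4 rest on few counts in several libraries.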

Other observations

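The balance between Fabp4 and Adipoq differed widely from library to library. The ratio of their FPKM values was 28.0, 16.2 and 68.6 in SYT1, SYT2 and SYT3, 23.8, 51.3 and 17.7 in YJT1, YJT2 and YJT3, 7.51, 12.7 and 20.4 in YJZYT1, YJZYT2 and YJZYT3, 12.1, 47.4 and 14.6 in Model1, Model2 and Model3, and 36.4, 18.7 and 26.9 in Blank1, Blank2 and Blank3. The highest ratios, in SYT3, YJT2 and Model2, belong to the libraries with the lowest Adipoq levels. Adipoq is the divisor of the ratio, so a low Adipoq level raises it by construction. All groups overlapped Model.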
